A study of Mus musculus with 2 samples.

Results

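A set of 9 genes of bile duct epithelium, simple keratin filaments and epithelial injury were followed in the livers of HFD-fed mice with or without *Wee1-AS* overexpression: *Sprr1a*, *Krt7*, *Krt8*, *Krt18*, *Krt19*, *Krt23*, *Epcam*, *Sox9* and *Cd24a*. They are 9 of the 45777 gene symbols of the deposited transcript table, chosen by name, and all 9 were among the 15857 genes with at least 10 estimated counts in at least 1 library. The group was assembled because *Sprr1a* was much lower with AAV-*Wee1-AS*, so the ratios between the libraries describe these genes and none of them is a test. Mice of the strain C57BL/6 N (C57BL/6 in the sample titles) were 7 weeks old at the start. They were fed a high-fat diet (HFD) for 18 weeks and received an adeno-associated virus (AAV) through the retro-orbital sinus at week 13 of the diet. The virus carried GFP in the AAV-GFP group, the control, and the lncRNA *Wee1-AS* in the AAV-*Wee1-AS* group. Strain, diet and exposure to an AAV were shared by both groups, and the CMV promoter of the *Wee1-AS* vector is not restricted to hepatocytes. The sex of the mice of this experiment is not given in the sources used here. Poly-A RNA of whole liver was sequenced, and 1 library per group was analysed here, the control with 55466182 estimated counts and the other with 48079335. The series' design text speaks of 4 liver samples, and whether a library holds RNA of 1 mouse or of a pool is not given in the sources used here. Because each group is a single library, there is no replicate check on any difference and no p-value is printed. The 95% intervals cover counting error alone (PCR can copy a molecule many times) and compare 2 libraries rather than 2 treatments. In bulk RNA, fewer cells of a type cannot be told apart from less RNA per cell. The level of *Wee1-AS* was not analysed here.

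Keratins build the intermediate filaments of epithelial cells, and each filament pairs a type I with a type II keratin. Hepatocytes carry the pair of *Krt8* (type II) and *Krt18* (type I), while cholangiocytes, the cells that line bile ducts, add *Krt7* (type II) and *Krt19* (type I). In injured liver, a ductular reaction can appear, in which cells with duct features such as EPCAM, SOX9 and KRT19 accumulate around the portal tracts, and in steatohepatitis KRT8 and KRT18 together with p62 make up the aggregates of ballooned hepatocytes known as Mallory-Denk bodies. *Sprr1a* encodes a small proline-rich protein of the cornified envelope of skin and is known as a gene induced by injury in neurons and by stress in cardiac muscle.

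RefSeq promoter sequences (GRCm38.p6, the assembly of mm10) were found for 6 of the 9 genes. The 250 bases upstream of the transcription start are shown for the 4 genes that were more than 2-fold lower with AAV-*Wee1-AS*, *Sprr1a*, *Krt8*, *Krt18* and *Krt23*, so that their control regions can be read beside the values. Capitals mark matches, on either strand, to any of 8 short motifs, of which 6 are bound by factors known in epithelial cells or their injury and 2, the TATA box and the SP1 site, are general promoter elements. The windows are chr3:92485882-92486131 on the minus strand for *Sprr1a*, chr15:102004343-102004592 on the minus strand for *Krt8*, chr15:102027966-102028215 on the plus strand for *Krt18* and chr11:99493121-99493370 on the minus strand for *Krt23*.
Sprr1a: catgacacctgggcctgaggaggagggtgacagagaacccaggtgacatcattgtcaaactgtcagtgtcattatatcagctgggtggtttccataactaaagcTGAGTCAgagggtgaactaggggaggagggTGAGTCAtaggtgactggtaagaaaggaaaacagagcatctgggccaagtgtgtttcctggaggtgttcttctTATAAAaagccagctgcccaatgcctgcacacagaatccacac
Krt8: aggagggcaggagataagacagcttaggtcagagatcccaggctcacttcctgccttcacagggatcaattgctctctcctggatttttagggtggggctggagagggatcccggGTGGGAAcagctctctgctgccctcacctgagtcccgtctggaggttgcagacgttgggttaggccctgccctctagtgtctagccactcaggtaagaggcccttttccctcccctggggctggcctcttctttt
Krt18: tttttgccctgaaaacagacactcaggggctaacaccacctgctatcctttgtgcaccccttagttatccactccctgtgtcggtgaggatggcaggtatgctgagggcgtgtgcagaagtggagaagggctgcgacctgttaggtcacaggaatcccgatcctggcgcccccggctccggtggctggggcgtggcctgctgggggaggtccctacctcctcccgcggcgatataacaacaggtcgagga
Krt23: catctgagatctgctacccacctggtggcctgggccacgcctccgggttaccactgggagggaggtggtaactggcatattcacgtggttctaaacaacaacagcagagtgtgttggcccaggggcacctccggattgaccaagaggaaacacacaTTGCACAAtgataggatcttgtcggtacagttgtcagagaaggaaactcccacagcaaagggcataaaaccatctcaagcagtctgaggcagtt

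The AP-1 motif was searched as TGANTCA, and the *Sprr1a* window held 2 matches to it, beginning 146 and 116 bases upstream of the start. The same letters occur in 6.75% of the 32851 promoter windows of this length. *Sprr1a* also held a match to the TATA box, searched as TATAAA, that began 43 bases upstream, and 12.4% of windows hold one. *Krt8* held 1 match to the RBPJ motif, searched as GTGGGAA and found in 5.42% of windows. In *Krt23* there was 1 match to the C/EBP motif, searched as TTGCNNAA and found in 9.56% of windows. The *Krt18* window held no match to any of the 8 motifs.

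The SP1 motif, searched as GGGCGG and found in 32.7% of windows, was present in *Krt7* and *Epcam*. The ETS motif was searched as ACCGGAAG (1.72% of windows) and was in none of the 6 windows. The same was true of the STAT motif, searched as TTCNNNGAA (7.02% of windows). It was also true of the TEAD motif, searched as GGAATG (12.6% of windows). None of the 8 motifs was thus shared among the 4 genes shown, and a match describes letters, not binding.

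*Sprr1a* (chromosome 3, 92483954 to 92485881) differed most of the 9 genes. It had 991 counts with AAV-GFP and 24 with AAV-*Wee1-AS*, that is 19.5 FPKM (95% counting interval 18.3 to 20.7) against 0.539 (0.346 to 0.802), where FPKM is fragments scaled to transcript length and library size. Its log2 ratio (AAV-*Wee1-AS* over AAV-GFP, as in all ratios that follow), from counts scaled by edgeR's TMM method with a prior count of 2, was -5.002 (-5.75 to -4.52), a 32.0-fold lower level. *Sprr1a* thus went from rank 2387 of 15857 genes by FPKM with AAV-GFP to rank 11443 with AAV-*Wee1-AS*. Among the 10923 genes with at least 100 counts in the AAV-GFP library, its ratio was the lowest but 2 (rank 3). *Sprr1a* was picked for its low ratio, and this set was filtered on the library where it is high. The rank is therefore a description and lends no support.

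The rest of the *Sprr* family was close to absent. Of 16 *Sprr* symbols in the table, 12 had 0 counts in both libraries, and 1, *Sprr1a*, passed the count filter. *Sprr2a1* and *Sprr2a2* had 4 counts each and *Sprr2b* had 2 with AAV-GFP, and all of these were at 0 with AAV-*Wee1-AS*. *Sprr1a* therefore held 99.0% of the family's 1001 counts with AAV-GFP and all 24 with AAV-*Wee1-AS*. Within the cluster on chromosome 3, between 92215835 and 92500493, 19 genes are listed and 4 passed the filter. Apart from *Sprr1a* these are the predicted genes *Gm5850* (12 and 12 counts), *Gm5851* (13 and 12) and *Gm9774*. For *Gm9774* the counts were 351 and 167 and the log2 ratio -0.80 (-1.08 to -0.54), so these neighbours of *Sprr1a* were not lower to the same extent.

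The genes whose ratio was nearest to that of *Sprr1a*, among genes with at least 100 counts in the AAV-GFP library, were *Rsc1a1* (1036 and 37 counts), *Ephb2* (588 and 24), *Sdcbp2* (222 and 8), *Ly6d* (5321 and 258) and *Cbr3* (739 and 35). Their log2 ratios were -4.48, -4.25, -4.25, -4.09 and -4.07, so the nearest differed from *Sprr1a* by 0.52 on the log2 scale. The likeness rests on 2 libraries only. *Ephb2* encodes an ephrin receptor, *Cbr3* a carbonyl reductase, and *Ly6d* a GPI-anchored surface protein of the LY6 family.

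*Krt8* and *Krt18*, the filament pair of hepatocytes, were by far the most abundant of the 9 genes and were both lower with AAV-*Wee1-AS*. *Krt8* (chromosome 15, 101996711 to 102004342) had 37684 counts with AAV-GFP and 12554 with AAV-*Wee1-AS*, or 324 and 125 FPKM. Its log2 ratio was -1.32 (-1.35 to -1.29), a 2.50-fold lower level. *Krt18* (chromosome 15, 102028216 to 102032026) had 20493 and 6413 counts, or 227 and 82.6 FPKM, and a log2 ratio of -1.41 (-1.45 to -1.37), which is 2.66-fold lower. After removal of the trends with GC content and length described below, *Krt8* was at -0.61 and *Krt18* at -0.71, and neither was past 2-fold. Both partners thus differed in the same direction and by nearly the same factor. By FPKM, *Krt8* moved from rank 234 to rank 504 and *Krt18* from rank 344 to rank 738, so both stayed among the abundant transcripts of the liver.

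The ratio of the partners to each other needs no scaling between libraries. *Krt8* was 1.43 times as abundant as *Krt18* per length in the AAV-GFP library and 1.52 times in the AAV-*Wee1-AS* library. The difference of these ratios was 0.09 on the log2 scale (95% counting interval 0.04 to 0.14), small beside the ratio of either gene. Part of the *Krt8* signal cannot be assigned with certainty. The processed copy *Krt8-ps* (chromosome 7, 23357094 to 23358779) had 642 and 183 counts, with a log2 ratio of -1.54 (-1.79 to -1.31), and reads of *Krt8* and *Krt8-ps* may have been split between them. With both added together, an alternative chosen after the data were seen, the log2 ratio was -1.33.

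*Krt23*, a type I keratin known to be induced in diseased liver (chromosome 11, 99477973 to 99493120), was also past 2-fold. It had 377 counts with AAV-GFP and 129 with AAV-*Wee1-AS* (3.78 and 1.499 FPKM), and its log2 ratio was -1.27 (-1.58 to -0.99). The interval thus reached just to the 2-fold limit. Relative to *Krt8*, *Krt23* was at 0.0117 of its FPKM with AAV-GFP and at 0.0120 with AAV-*Wee1-AS*, a log2 difference of 0.04 (-0.26 to 0.33). *Sprr1a* differed from *Krt8* far more, by -3.78 (-4.43 to -3.20) on the same scale, since it was at 0.0601 of the FPKM of *Krt8* in the first library and at 0.00430 in the second. With the trends with GC content and length removed, *Krt23* was at -1.002 and *Krt8* at -0.61, so these 2 ratios lay further apart.

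The keratins of bile ducts were below 1 FPKM in both libraries. *Krt19* (chromosome 11, 100140810 to 100145926) had 72 counts with AAV-GFP and 37 with AAV-*Wee1-AS*, or 0.809 and 0.472 FPKM, all of them on the longer of its 2 listed transcripts. Its log2 ratio was -0.67 (-1.31 to -0.11), so it was lower but not past 2-fold, and it was 0.08 once those trends were removed. *Krt7* (chromosome 15, 101412403 to 101427806), its type II partner in ducts, had 37 and 27 counts, or 0.359 and 0.306 FPKM. Its log2 ratio of -0.18 (-0.96 to 0.56) had an interval that included 0, so no difference in *Krt7* was detectable at this depth. *Krt18* was 281 times as abundant as *Krt19* per length with AAV-GFP and 175 times with AAV-*Wee1-AS*, a log2 difference of -0.72 (-1.31 to -0.10), so the hepatocyte keratin was lower by more than the duct keratin.

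The 3 remaining duct and progenitor genes had ratios above 0. *Epcam* (chromosome 17, 87635979 to 87651127), which encodes an epithelial adhesion molecule of cholangiocytes, had 54 and 49 counts and a log2 ratio of 0.12 (-0.46 to 0.71). *Cd24a* (chromosome 10, 43579169 to 43584265), which encodes a surface glycoprotein of ductal progenitors and of several blood cells, had 107 and 95 counts and a log2 ratio of 0.09 (-0.32 to 0.50), which was -0.03 with upper quartile scaling and -0.87 with the trends removed. Both intervals include 0. *Sox9* (chromosome 11, 112782210 to 112787757), the transcription factor of duct development, had 96 counts with AAV-GFP and 140 with AAV-*Wee1-AS*, or 0.358 and 0.607 FPKM. Its log2 ratio of 0.79 (0.42 to 1.20) was the highest value of the 9 genes, although with the trends removed *Epcam* (0.52) was at the level of *Sox9* (0.51). The counts do not resolve *Sox9* from *Epcam* (log2 difference 0.68, -0.03 to 1.40). *Sox9* was at 0.443 of the FPKM of *Krt19* with AAV-GFP and at 1.29 with AAV-*Wee1-AS*, a log2 difference with an interval of 0.78 to 2.23. With the trends removed their ratios lay closer, at 0.51 for *Sox9* and 0.08 for *Krt19*.

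Summed over *Krt7*, *Krt19*, *Epcam*, *Sox9* and *Cd24a*, there were 366 counts with AAV-GFP and 348 with AAV-*Wee1-AS*, a log2 ratio of 0.19 (-0.02 to 0.41). Their summed FPKM was 2.84 with AAV-GFP and 2.75 with AAV-*Wee1-AS*, so the direction of the sum depended on the measure. The sum was not computed with the trends removed. *Krt8* and *Krt18* together had 58177 and 18967 counts, a log2 ratio of -1.35 (-1.38 to -1.33). The interval for the 5 duct genes thus included 0, while with *Krt23* added to them it did not (743 and 477 counts, -0.37, -0.54 to -0.21). The interval for the filament pair lay wholly below 0.5-fold, a call that neither gene kept with the trends removed.

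**Figure D1:**
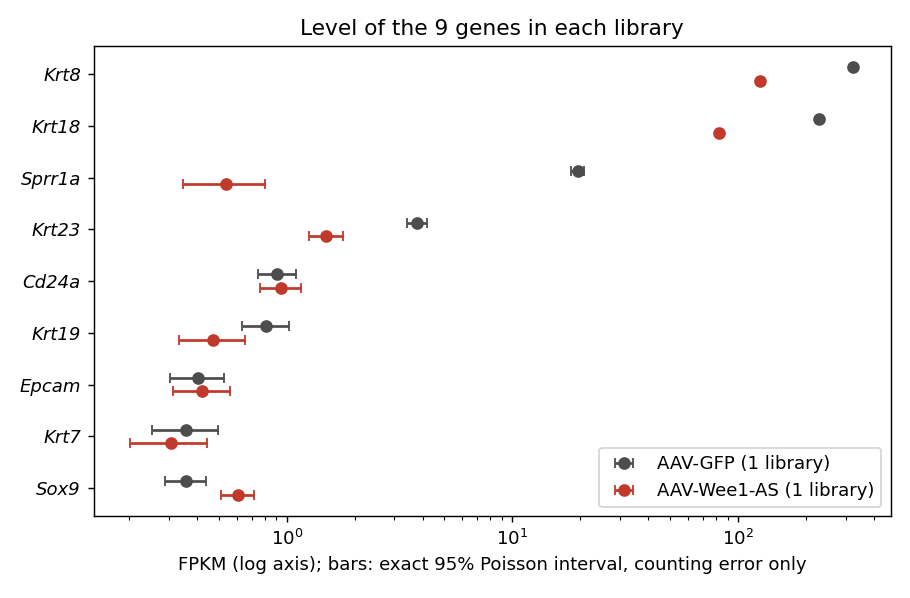
Level of each of the 9 genes in FPKM (log axis) in the AAV-GFP library (dark points) and the AAV-*Wee1-AS* library (red points), with bars for the exact 95% Poisson interval of the counts. *Krt8* and *Krt18* stand above 80 FPKM in both libraries, *Sprr1a* is at 19.5 and 0.539 FPKM, and the 5 duct genes lie below 1 FPKM in both.

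In the AAV-GFP library, the order of the levels per length was *Krt8*, *Krt18*, *Sprr1a*, *Krt23*, *Cd24a*, *Krt19*, *Epcam*, *Krt7* and *Sox9*. The intervals of *Cd24a* and *Krt19* overlapped, as did those of *Epcam*, *Krt7* and *Sox9*, so the order within these sets is not resolved by the counts. With AAV-*Wee1-AS*, the order was *Krt8*, *Krt18*, *Krt23*, *Cd24a*, *Sox9*, *Sprr1a*, *Krt19*, *Epcam* and *Krt7*. From *Sox9* downward, each gene's interval overlapped that of the next. *Sprr1a*, in position 3 with AAV-GFP and apart from both neighbours, was thus among the duct genes at the bottom of the order with AAV-*Wee1-AS*.

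Of the 9 genes, 4 were below 0.5-fold with AAV-*Wee1-AS* (*Sprr1a*, *Krt8*, *Krt18* and *Krt23*), while 8.71% of all genes tested were. The counting interval lay wholly below 0.5-fold for 3 of them (*Sprr1a*, *Krt8* and *Krt18*), and for 3.72% of all genes. None of the 9 was above 2-fold, a limit that 22.2% of all genes passed. The median log2 ratio was -0.67 over the 9 genes and -0.02 over all genes.

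**Figure D2:**
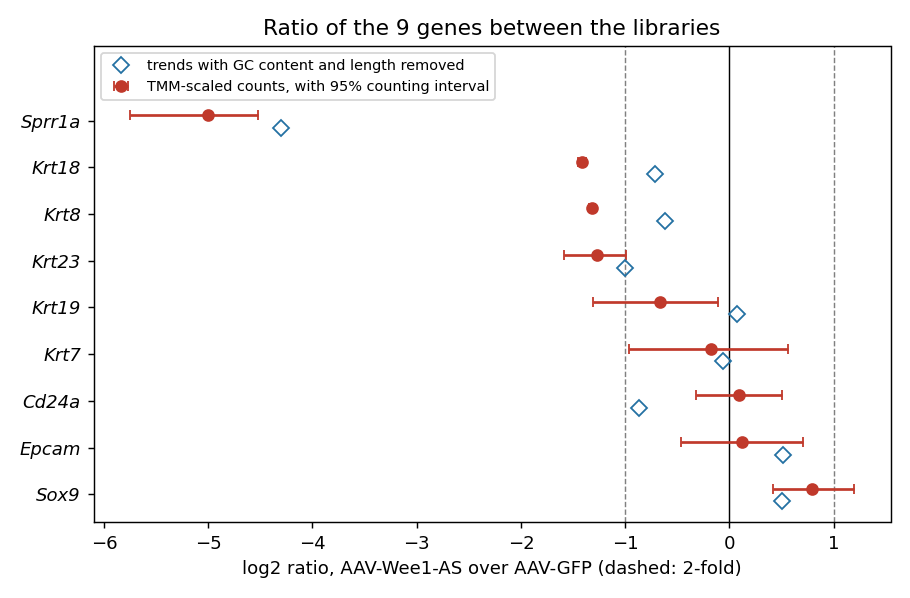
Log2 ratio (AAV-*Wee1-AS* over AAV-GFP) for each gene (red points, with the 95% counting interval) and the same ratio after trends with GC content and length were taken out (open diamonds). *Sprr1a* stays far below the dashed 2-fold line under both, while *Krt8* and *Krt18* move from -1.32 and -1.41 to -0.61 and -0.71.

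The base composition of the transcript moved with the ratio across all genes (Spearman coefficient -0.69 over the 15100 genes with a GC value, a description across genes that are not independent replicates). *Krt8*, *Krt18* and *Krt19*, with GC contents of 57.1%, 56.4% and 57.5%, were in a GC bin (1510 genes in each of 10 bins) with a median log2 ratio of -0.61 and with 18.3% of its genes below 0.5-fold. *Sprr1a*, at 55.5%, was in a bin with a median of -0.51, and *Krt23*, at 51.4%, in one with a median of -0.12. *Cd24a* had the lowest GC content of the 9 genes, 42.9%, in a bin with a median of 1.14.

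After lowess fits had taken out the dependence on GC content and on transcript length, *Sprr1a* was at -4.30 and *Krt23* at -1.002. *Krt8* was then at -0.61 and *Krt18* at -0.71, so that 2 of the 9 genes were below 0.5-fold, against 8.02% of all genes, and 0 were above 2-fold, against 6.91%. *Krt19* was at 0.08, *Krt7* at -0.06, *Epcam* at 0.52, *Sox9* at 0.51 and *Cd24a* at -0.87. *Sprr1a* thus stayed well past 2-fold. *Krt23*, at 0.4992-fold, was only just past the limit, which its counting interval had reached before removal. *Krt8* and *Krt18* did not stay past it. The part of base composition in these ratios was not tested.

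**Figure D3:**
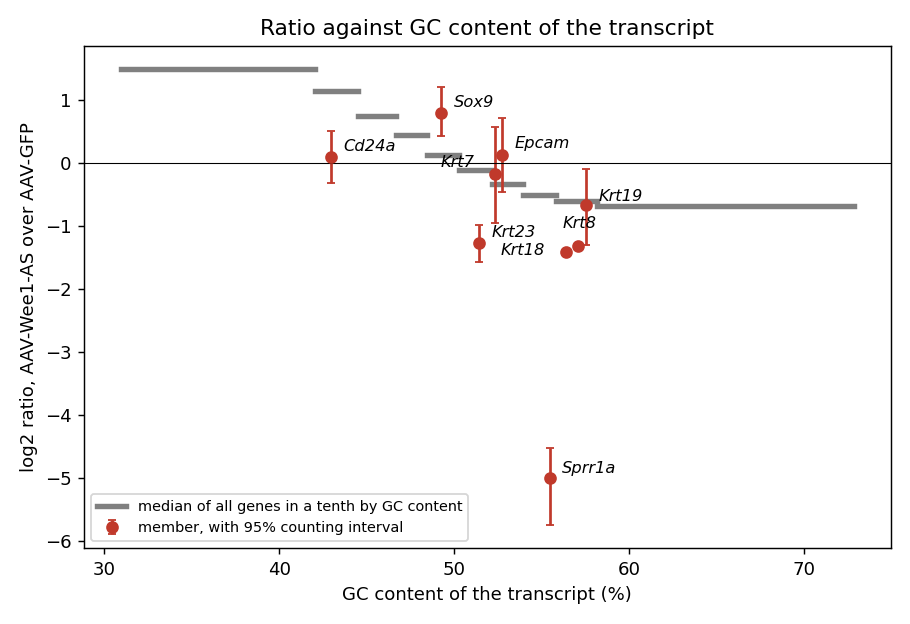
Log2 ratio (AAV-*Wee1-AS* over AAV-GFP) against the GC content of the transcript (%) for the 9 genes (red points, with the 95% counting interval) and the median of all genes in each of 10 GC bins (grey bars). *Sprr1a*, *Krt23* and *Cd24a* lie furthest below the bar at their GC content, *Krt8* and *Krt18* lie below theirs by a smaller step, and *Krt19* lies near its bar.

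The keratin family was next examined as a whole. Of 54 keratin symbols, 43 had 0 counts in both libraries, and 9 passed the count filter. *Krt8* and *Krt18* held 99.0% of the family's 58770 counts with AAV-GFP and 98.8% of 19201 with AAV-*Wee1-AS*. Keratins outside the 9 genes were rare: *Krt80* had 41 and 19 counts and a log2 ratio of -0.79 (-1.71 to -0.03), and *Krt10*, an epidermal keratin, had 31 and 22 counts and one of -0.21 (-1.09 to 0.60). *Krt4*, a keratin of stratified epithelium, had 18 counts and 0, at least 4.998-fold lower against a floor of 3 counts in the library, and *Krt79* had 12 against 0, at least 3.33-fold lower. With the trends with GC content and length removed, *Krt80* was at -0.23 and *Krt10* at 0.26. *Krt4* and *Krt79* were then at -2.65 and -2.08, values that depend on the prior count. Of 36 genes listed on chromosome 15 from *Krt7* to *Krt18*, 5 passed the filter, and of 55 on chromosome 11 from *Krt23* to *Krt19*, 3 did. *Krt4* and *Krt79* were the ones between *Krt7* and *Krt8*.

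Partners of keratins were examined next. Of 17 genes of desmosomes, plakins and Mallory-Denk bodies, all past the filter, 5 were below 0.5-fold and 2 above 2-fold (8.71% and 22.2% of all genes), with a median log2 ratio of -0.41. The small heat shock protein *Hspb1*, which binds keratins, was at -1.90 (3424 and 762 counts). The transglutaminase *Tgm2*, which crosslinks them, was at -1.27 (22038 and 7633 counts). *Sqstm1*, which encodes the p62 of Mallory-Denk bodies, had 33941 and 15804 counts and a ratio of -0.84 (-0.87 to -0.81), short of 2-fold. These 3 were the most abundant genes of the list, and each had a lower value with AAV-*Wee1-AS*. The desmosomal plakophilins *Pkp1* (51 and 10 counts) and *Pkp3* (164 and 47 counts) were at -1.91 and -1.504. The desmosomal cadherins *Dsg2* and *Dsc2* were at 1.31 and 1.31, and the keratin anchor *Dsp*, which encodes desmoplakin, was at 0.83. With the trends removed, *Dsg2* was at 0.57, *Dsc2* at -0.05 and *Dsp* at 0.40. *Sqstm1* was then at -0.28, *Tgm2* at -0.74 and *Pkp3* at -0.81, all within 2-fold, while *Hspb1* was at -1.06 and *Pkp1* at -1.73. Thus 2 genes of the list were below 0.5-fold and 0 above 2-fold, beside 8.02% and 6.91% of all genes.

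Other genes of cholangiocytes were also examined. Of 32, 28 passed the filter, 4 were below 0.5-fold and 7 above 2-fold, beside 8.71% and 22.2% of all genes, and the median log2 ratio was -0.23 (0.05 with the trends removed). Of the 4, 3 were at 0 counts with AAV-*Wee1-AS*: *Ggt1* (11 against 0), *Cldn4* (18 against 0) and *Fxyd3* (21 against 0). Their ratios depend on the prior count. *Clu*, which hepatocytes also express, had 146737 and 89280 counts and a ratio of -0.45, which was 0.20 with the trends removed. The water channel *Aqp1* (10238 and 4565 counts) was at -0.90 and the tight junction gene *Cldn3* (4630 and 2203) at -0.81, both short of 2-fold. Among genes with at least 30 counts, the membrane protease *St14* had the lowest ratio, -1.59, from 66 and 17 counts. The highest were those of *Onecut2*, a transcription factor of biliary development, at 2.58 (385 and 1921 counts), the bile acid transporter *Slc10a2* at 1.93 (425 and 1358) and the cilium channel *Pkd2* at 1.68 (221 and 593). With the trends removed these were at 0.60, 0.36 and 1.21, so that *Pkd2* alone of these stayed past 2-fold, and *Aqp1* and *Cldn3* were at -0.39 and 0.02. Over the list, 5 genes were then below 0.5-fold, *Ggt1*, *Cldn4* and *Fxyd3* among them, and 2 above 2-fold, beside 8.02% and 6.91% of all genes.

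The cornified envelope was represented by 6 genes past the filter out of 27 listed. Involucrin (*Ivl*) and filaggrin (*Flg*) had 0 counts in both libraries. The calcium-binding *S100a11* had 2591 counts with AAV-GFP and 419 with AAV-*Wee1-AS* and a ratio of -2.36 (-2.52 to -2.21), and the protease inhibitor *Cstb* had 3165 and 1286 counts and one of -1.04 (-1.13 to -0.94). *S100a10*, the binding partner of annexin A2, was at -0.84 (9077 and 4213). *Tgm1* (489 and 538 counts) and *Anxa1* (135 and 159) were at 0.40 and 0.49, and with the trends removed at 1.007 and -0.36. Of the 6, 2 were thus below 0.5-fold and 0 above 2-fold, beside 8.71% and 22.2% of all genes, and with the trends removed 1 was below (*S100a11*, -2.15) and 1 above (*Tgm1*), while *Cstb* was at -0.91. *S100a11* and *Cstb* are genes of many tissues. Loricrin (*Lor*), an epidermal gene, had 31 and 25 counts and a ratio of -0.04 (-0.87 to 0.76).

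Pathways known to control duct identity or *Sprr1a* were also examined. YAP, the effector of the Hippo pathway, drives duct genes such as *Sox9* and the secreted factors *Ccn1* and *Ccn2*. Of 22 Hippo and YAP genes, 21 passed the filter, 3 were below 0.5-fold and 4 above 2-fold (8.71% and 22.2% of all genes), with a median of 0.10, which was -0.02 with upper quartile scaling and -0.46 with the length trend alone removed. The target genes *Ccn1* (740 and 213 counts) and *Ccn2* (597 and 216) were at -1.53 and -1.20, and *Tead2*, which encodes a DNA-binding partner of YAP, was at -1.16 (94 and 34). The receptor kinase *Axl* (3218 and 1746) and the TEAD cofactor *Vgll4* (1631 and 991) were at -0.62 and -0.45. With the trends removed, they were at -0.35 and 0.16. *Yap1* itself had 2158 and 2435 counts and a ratio of 0.44. The pathway components *Mob1a*, *Stk3* and *Lats1* had the highest ratios, 1.88, 1.56 and 1.32, which were 0.68, 0.43 and -0.25 with the trends removed. *Ccn1*, *Ccn2* and *Tead2* were then at -1.12, -0.95 and -0.49, so that 1 gene of the list was below 0.5-fold and 0 above 2-fold (8.02% and 6.91% of all genes).

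Notch signaling, through which JAG1 on portal cells specifies bile ducts, had 19 of 21 genes past the filter, 1 below 0.5-fold and 4 above 2-fold (8.71% and 22.2% of all genes), with a median of -0.49. The ligand *Dll4* was at -1.06 (430 and 171 counts), and the targets *Heyl* (261 and 108), *Nrarp* (178 and 76) and *Hes1* (544 and 322) were at -0.997, -0.95 and -0.49. The glycosyltransferase gene *Rfng* (1373 and 809) was at -0.50 and the Notch inhibitor *Numb* (1660 and 1670) at 0.27. With the trends removed, they were at 0.25 and 0.005. The sheddases *Adam10* (322 and 979) and *Adam17* (277 and 764) and the ligand *Jag1* (95 and 224) were at 1.86, 1.72 and 1.48. With the trends removed, none of the 19 genes was past 2-fold in either direction, and the median was -0.05.

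Cytokines of the gp130 family and AP-1 factors are known inducers of *Sprr1a*. Of 22 genes, 18 passed the filter, 5 were below 0.5-fold and 3 above 2-fold (8.71% and 22.2% of all genes), with a median of -0.38. *Lif*, with 12 counts against 0, was among the 5, and its ratio depends on the prior count. The AP-1 gene *Fosb* had 142 counts with AAV-GFP and 13 with AAV-*Wee1-AS* and a ratio of -3.02 (-4.13 to -2.37). The stress factor *Atf3* had 410 and 91 counts and one of -1.89 (-2.25 to -1.58), and *Maff* had 937 and 255 counts and one of -1.61 (-1.82 to -1.41). The most abundant AP-1 gene, *Jund*, was at -0.92 (4888 and 2158). *Stat3*, which encodes the factor downstream of gp130, was at 0.09 (6657 and 5906). The receptor subunits lay on both sides, with *Il11ra1* at -0.75 (1842 and 910), *Osmr* at 0.30 with an interval that included 0 (-0.04 to 0.66), *Lifr* at 1.54 (1892 and 4589), *Il6st*, which encodes gp130, at 1.21 (3680 and 7118) and *Il6ra* at 0.74. With the trends removed, 3 genes of the list were below 0.5-fold and 2 above 2-fold (8.02% and 6.91% of all genes), with a median of -0.05. *Fosb* and *Atf3* were then at -2.58 and -1.54, *Maff* and *Fos*, which had been past 2-fold, at -0.88 and -0.85, *Il11ra1* at -0.01, *Lifr* at 1.09 and *Il6st* at 0.22. Under the same setting *Osmr* was at -0.64, outside its counting interval, *Il6ra* was at 0.18 and *Jund* at -0.26.

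Genes of liver injury and steatohepatitis were next, a list that holds genes known from earlier results of these libraries. Of 29, 27 passed the filter, 15 were below 0.5-fold and 1, the neutrophil chemokine *Cxcl1* (230 and 468 counts), was above 2-fold, beside 8.71% and 22.2% of all genes. The median was -1.08, and -0.79 with the trends removed, when 11 were below 0.5-fold and 2 above 2-fold (8.02% and 6.91% of all genes). *Ly6d*, which is also among the genes nearest to *Sprr1a*, had 5321 counts with AAV-GFP and 258 with AAV-*Wee1-AS*, a ratio of -4.09 (-4.29 to -3.92). *Gpnmb*, a gene of lipid-laden macrophages, had 831 and 62 counts and a ratio of -3.44 (-3.88 to -3.11), and the fetal RNA *H19* had 187 and 33 counts and one of -2.18 (-2.82 to -1.70). The abundant *Anxa5* was at -1.62 (17614 and 4782). The acute phase genes *Saa1* (13642 and 14185) and *Saa2* (8417 and 7265) were at 0.32 and 0.05, and the metallothioneins *Mt1* and *Mt2* at 0.53 and 0.35, so not every injury gene was lower. With the trends removed, *Mt1* and *Mt2* were at 1.45 and 1.18 and were the 2 genes above 2-fold, while *Cxcl1* was at 0.67.

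**Figure D4:**
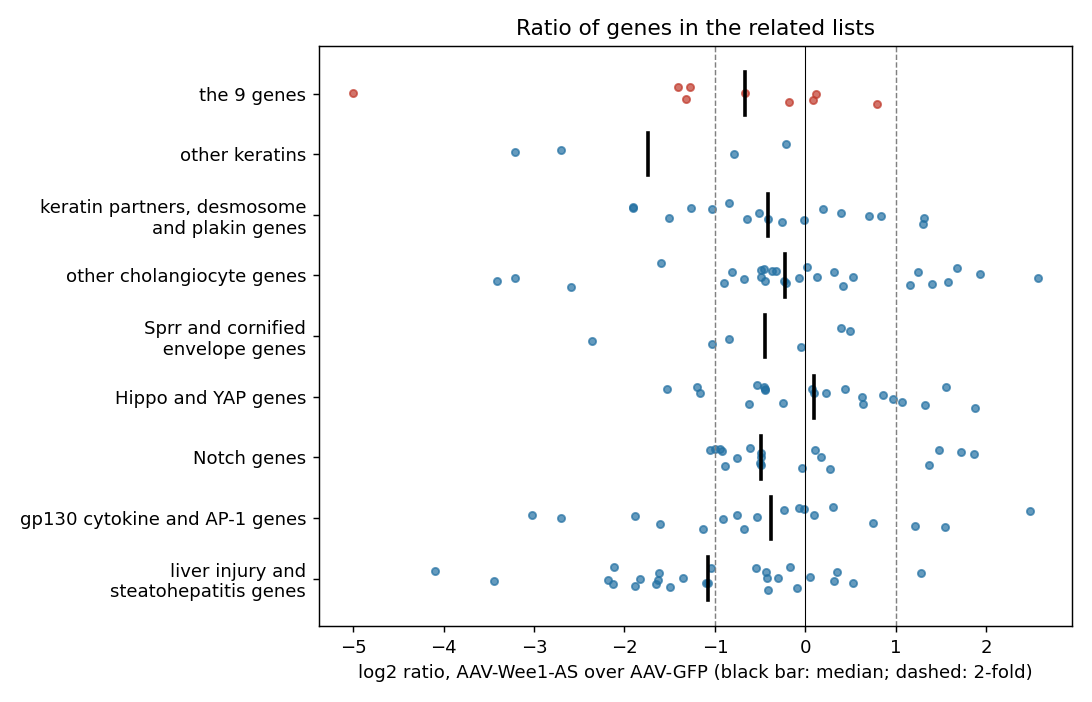
Log2 ratio (AAV-*Wee1-AS* over AAV-GFP) for each gene past the count filter in the 9-gene group (red) and in 8 related lists (blue), with the median of each as a black bar and 2-fold as dashed lines. Points for genes at 0 counts in a library depend on the prior count, and the liver injury list has a median of -1.08 while the Hippo and YAP list has one of 0.10 (-0.02 with upper quartile scaling).

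Markers of cell types were set beside these genes, and their counts stand against 8.71% of all genes below 0.5-fold and 22.2% above 2-fold. The 13 hepatocyte markers were all present, with 0 below 0.5-fold and 1 above 2-fold and a median of -0.08. *Alb* and *Hnf4a* had log2 ratios of 0.53 and -0.06. With the trends removed, 1 hepatocyte marker was below 0.5-fold (*Ttr*, -1.05) and 0 were above 2-fold, and *Krt8* and *Krt18* were within 2-fold too. The part of hepatocyte content in the keratin values was not tested. The 10 cholangiocyte markers outside the 9 genes summed to 28.4 FPKM with AAV-GFP and 25.4 with AAV-*Wee1-AS*, most of it *Spp1* (20.7 and 17.3), and their summed counts had a log2 ratio of 0.05 (-0.02 to 0.12). Of these 10, 8 passed the filter, 1 was below 0.5-fold (*Cldn4*, 18 counts against 0) and 1 above 2-fold (*Pkhd1*). *Spp1*, with 1900 and 1365 counts, was at -0.21, and with the trends removed *Spp1* was at -0.99 and *Pkhd1* at 0.05.

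Mesothelial cells of the liver capsule also express *Krt8*, *Krt18* and *Krt19*. Their 5 other markers summed to 298 counts with AAV-GFP and 110 with AAV-*Wee1-AS*, a log2 ratio of -1.16 (-1.50 to -0.85). *Upk3b* had 125 and 32 counts, *Msln* had 78 and 25, and *Wt1* had 35 and 0, at least 9.72-fold lower, while *Upk1b* had 18 and 8 and *Gpm6a* had 42 and 45. Of these 5, 3 were below 0.5-fold and 0 above 2-fold, beside 8.71% and 22.2% of all genes. With the trends removed, 4 of these 5 were below 0.5-fold and 0 above 2-fold, beside 8.02% and 6.91% of all genes. The 4 were *Wt1* at -3.70, a value that depends on the prior count, *Upk3b* at -1.29, *Upk1b* at -1.01 and *Gpm6a* at -1.06. *Gpm6a* had been at 0.35 before. *Msln* was then at -0.73, no longer past 2-fold. The highest of these markers reached 0.948 FPKM, against 324 FPKM for *Krt8* and 0.809 for *Krt19* in the same library. The part of mesothelial RNA in the keratin values was not tested. Of the 9 markers of gallbladder, gut and pancreas, 2 passed the filter, and neither was past 2-fold. Against the same shares of all genes (8.71% and 22.2%), the 10 stellate cell and fibroblast markers had 5 below 0.5-fold and 1 above, with a median of -0.84. The 10 Kupffer cell and macrophage markers had 1 below and 3 above (-0.03), the 8 endothelial markers had 0 below and 1 above (-0.18), and the 8 lymphocyte markers had 2 below and 1 above (0.00219). Once the trends were removed, which left 8.02% of all genes below 0.5-fold and 6.91% above 2-fold, the stellate list had 5 below and 0 above (median -1.17), the Kupffer list 1 and 1, the endothelial list 0 and 0, the lymphocyte list 1 and 1, and the gallbladder, gut and pancreas list 0 and 1 (*Cela1*).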

How the data were processed

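Processed values of liver RNA from HFD-fed mice were used, 1 library each of AAV-GFP and AAV-*Wee1-AS*. Poly-A libraries were made with a stranded kit and sequenced as paired ends. The submitters' processing notes name Trimmomatic 0.38, HISAT2 2.1.0, SAMtools 1.9 and StringTie 2.1.3b and the build mm10, with no role or order. The authors deposited 1 table of 129299 RefSeq transcripts. Its estimated counts per transcript, deposited without normalization, equal FPKM times length times a constant per library, rounded to whole numbers (within 1.01 counts for 99.6% and 99.7% of transcripts with counts in the respective libraries). The FPKM and TPM values deposited by the authors were used for levels per length and as alternatives. The transcript lengths of the table served for a length trend.

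Counts were summed per gene symbol and scaled by TMM (edgeR 4.0.16 in R 4.3.3; factors 1.02 for the control and 0.980 for the other library). A prior count of 2 entered each log2 ratio. A gene was kept if either library reached 10 counts, ratios past 2-fold were counted, and 3 counts served as the floor for a library at 0. Intervals are exact (Clopper-Pearson for ratios, Poisson for levels, conditional for ratios within libraries). No gene-wise test was possible with 1 library per group. GC content came from GENCODE M21 transcripts, matched by RefSeq accession (11126 genes) or by symbol (3974), and trends were removed by lowess with a span of 0.3 over 5 cycles. Python 3.11.15 with scipy 1.17.1, pandas 2.3.3 and statsmodels 0.14.6 was used, and the steps were tested on simulated data.

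The 9 genes and the lists were chosen with earlier results of these data known. Named in the text are the 9 genes; in each list, up to 3 genes with the highest FPKM in the AAV-GFP library and up to 3 each with the highest and lowest ratio, provided a library reached 30 counts; neighbours in the gene clusters; and the 5 genes nearest in ratio to *Sprr1a* with at least 100 counts in the AAV-GFP library. Other genes named beside these, such as *Krt8-ps*, *Ivl*, *Flg*, *Lor*, *Osmr* and the cell type markers, were chosen after their values were seen. Alternatives were 4 other scalings (DESeq2 1.42.0 size factors among them), a prior count of 0.5, FPKM or TPM with a pseudocount of 1, the most counted or the curated transcripts alone, removal of trends and other count filters.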

Additional observations from a re-analysis of the deposited data

How the results depend on the processing

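No gene was above 2-fold among the 9 under any of the 13 alternatives run, and the number below 0.5-fold was 3 or 4 under 12 of them, with *Krt23* falling just short under FPKM with a pseudocount of 1. With the trends with GC content and length removed, 2 of the 9 were below 0.5-fold, since *Krt8* and *Krt18* were then at -0.61 and -0.71. The *Sprr1a* log2 ratio was between -5.12 and -4.63 under 8 of 11 alternatives. It was -3.73 with FPKM and a pseudocount of 1 and -4.24 with TPM and a pseudocount of 1, which shrink the ratio of low values by construction, and -4.30 with the trends with GC content and length removed, for which the cause was not tested. *Krt8* ranged from -1.44 to -0.61, *Krt18* from -1.53 to -0.71, *Krt23* from -1.39 to -0.93 and *Sox9* from 0.24 to 0.81, so none of these changed direction. *Krt19* ranged from -0.78 to 0.08, *Krt7* from -0.29 to 0.01, *Cd24a* from -0.87 to 0.24 and *Epcam* from 0 to 0.52. The upper quartile scaling moved the median of all genes most, to -0.13 from -0.02. With genes at the floor set at their bounds, the median of the other keratins, -1.74 over 4 genes, was -1.26, and it was -0.12 with FPKM, -0.21 with TPM and -2.68 with a prior count of 0.5. With at least 50 counts required, no gene of that list was left. At 27 to 107 counts, the counting intervals of *Krt7*, *Epcam* and *Cd24a* included 0, though *Cd24a* was at -0.87, outside its interval, with both trends removed. Over all genes, the share below 0.5-fold was 8.71%, and with FPKM 1.94%, with TPM 2.76% and with the most counted transcript alone 13.1%; the share above 2-fold was 22.2%, and with FPKM 6.49%, with TPM 10.1% and with both trends removed 6.91%. No paired analysis was possible because each group had 1 library.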
